A study of Sus scrofa with 8 samples.

Results

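Pleiotrophin (PTN) and midkine (MDK) are the only members of one small family of secreted, heparin-binding growth factors. They bind sulfated sugar chains on cell surface proteoglycans and reach the cell through several receptors. The genes described here were taken by name from the gene column of the matrices: both ligands, the receptor tyrosine phosphatases PTPRS and PTPRZ1, the transmembrane heparan sulfate proteoglycan SDC3 (syndecan-3), the receptor tyrosine kinase ALK and the ALK ligand ALKAL2. Of these 7 genes, 6 were measured among 21301 genes in all, and ALK was not analysed here. Reads were counted as unique molecular identifiers (UMIs) in dissociated single cells from 8 pig libraries. Somites were collected at embryonic day (E) 16, 18 and 21 and myotome at E28, from 2 breeds, ZZ (Tibetan pigs) and DZ (Duroc×Tibetan pigs), and no treatment is named for any library. Each library was a pool of 5 embryos of 1 sow, so stage and breed combinations had 1 library each, and the change of tissue at E28 cannot be told apart from the stage. In comparisons of stages, periods or breeds, p-values measure the spread between these pools. Comparisons between cell types take the library as a block, and their p-values measure how far differences between cell types vary among the same 8 pools. E16 and E18 are called early below (4 libraries) and E21 and E28 late (4 libraries).

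In the textbook account, both ligands are made widely in embryonic mesenchyme and nervous tissue. PTPRZ1 is best known from glia and neural progenitors, and binding of pleiotrophin to it is held to lower its phosphatase activity, so that its substrates stay phosphorylated. PTPRS is a related phosphatase that is prominent on neurons and binds heparan and chondroitin sulfate chains. Syndecan-3 carries heparan sulfate and is known from neural crest, limb mesenchyme and muscle progenitors. The question taken from the study is which cells of the forming axial muscle carry the ligand, which carry the receptors, and how this stands along the myogenic sequence from dermomyotome to myocyte.

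After filtering, 74147 cells and between 39887814 and 57796312 UMIs per library were kept, with medians of 3404.5 to 6192 UMIs per cell. A cell was assigned to a gate when it held UMIs of at least 2 markers of that type and of more of them than of any other type, and none of the genes described here was a marker. In all, 41770 cells (56.3%) fell into 1 of 16 gates. Fibroblast-gated cells numbered 13756, chondrocyte-gated 3799, lateral mesoderm-gated 3627, neuron-gated 3619 and endothelial-gated 3535. The myogenic gates held 1168 (dermomyotome), 1929 (myoblast) and 2279 (myocyte) cells. Genes kept out of the gates mostly bore out the names: COL2A1 was highest in the chondrocyte gate (1204 CPM, the UMIs of a gene relative to all UMIs of the sum, TMM-scaled), GAP43 in the neuron gate (791.0 CPM) and TEK in the endothelial gate (131.4 CPM). The fibroblast and lateral mesoderm gates were close to each other in COL1A1 (892.8 and 915.3 CPM), and NES was higher in the myocyte gate (1728 CPM) than in the neural progenitor gate (457.1 CPM). ERBB3 did not mark the glia gate, at 1170 CPM there and 1222 CPM in the erythroid gate. Between 13 and 38 cell barcodes were shared by any pair of libraries, at most 0.40% of the smaller one. In E16-ZZ, 39.16% of barcodes exceeded the mitochondrial limit, against 1.05% to 9.15% elsewhere. Fibroblast-gated cells made up 1.76% to 10.4% of gated cells in the early libraries and 27.1% to 67.7% in the late ones, while lateral mesoderm-gated cells went from 15.1% to 32.2% to at most 0.271%. In sums over a whole library, fewer cells of a type and less RNA per cell cannot be told apart.

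In RefSeq's pig annotation (Sscrofa11.1), PTN (ENSSSCG00000016522) lies on chromosome 18 from 12219708 to 12309045 on the plus strand, and 2 annotated antisense long noncoding RNAs overlap it. MDK (ENSSSCG00000013260) lies on chromosome 2 from 16130787 to 16133791 on the minus strand and overlaps CHRM4 on the opposite strand. PTPRS (ENSSSCG00000028612) occupies chromosome 2 from 73607815 to 73680685 on the plus strand. PTPRZ1 (ENSSSCG00000016614) is on the minus strand of chromosome 18, from 25046027 to 25228276. SDC3 (ENSSSCG00000003592) is on the minus strand of chromosome 6, from 87495041 to 87535689. ALKAL2 (ENSSSCG00000039057) is on the plus strand of chromosome 3, from 132661153 to 132671270. Whether reads of the overlapping antisense genes entered the counts of PTN or MDK was not tested.

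PTN, pleiotrophin itself, stood in whole libraries at 267.9 and 230.4 CPM at E16 (ZZ before DZ), 189.2 and 171.3 CPM at E18, 289.4 and 487.2 CPM at E21 and 1250 and 1161 CPM at E28. The 4 late libraries were all above the 4 early ones, and the E28 libraries were the highest. The late level was 3.78-fold the early one (log2 difference 1.92 ± 0.46 SE, edgeR adjusted p = 0.0161). In this comparison 34.2% of all 14339 genes tested passed, and of the 6 genes described here 4 passed, all higher in the late libraries. Between adjacent stages, 4.61% of all genes passed from E16 to E18 and none of the 6. From E18 to E21 (21.2% of all genes passed) PTN rose by 1.12 ± 0.24 on the log2 scale (edgeR adjusted p = 0.0202), and from E21 to E28 (8.76% of all genes) by another 1.63 ± 0.24 (edgeR adjusted p = 0.0140). The late against early call rested on the E28 libraries: without both, the log2 difference was 0.87 (edgeR adjusted p = 0.0699), and without E28-ZZ alone 1.44 (0.0585). The rise from E18 to E21 did not pass without E18-ZZ (1.24, edgeR adjusted p = 0.112) or without E18-DZ (0.96, 0.172).

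**Figure D1:**
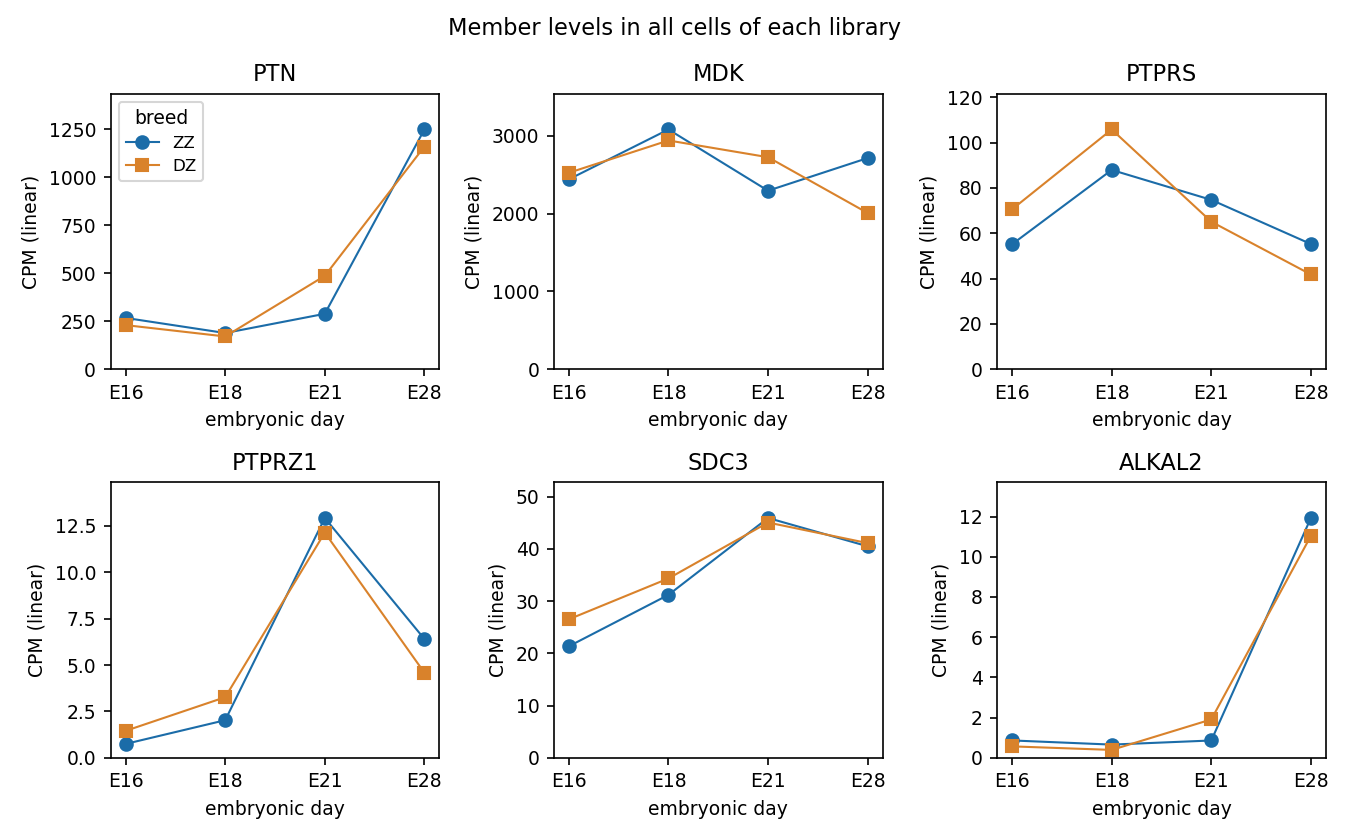
Level of each gene in all cells of a library (y axis, CPM on a linear scale from 0) against embryonic day (x axis, days at equal spacing), 1 panel per gene and 1 point per library, with a line joining the libraries of each breed. PTN is highest in both E28 libraries (1250 and 1161 CPM), while MDK stays between 2007 and 3079 CPM in all 8.

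MDK, the second ligand, showed no such course. Its whole-library level was 2745 ± 312 CPM (SD, n = 4) in the early and 2434 ± 348 CPM (n = 4) in the late libraries, and the ranges overlapped (log2 difference -0.15 ± 0.14 SE, edgeR adjusted p = 0.455). None of the 3 steps between adjacent stages passed for MDK, with log2 differences of 0.28, -0.23 and -0.10. With each cell thinned to 1500 UMIs so that depth was equal, the median share of cells with an MDK UMI over libraries was between 66.8% (neuron gate) and 100% (sclerotome gate) in the 13 gates other than cardiac, macrophage and erythroid, against 14.5% in the erythroid gate.

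The receptors differed from each other over the stages. PTPRS had whole-library levels of 79.9 ± 21.9 CPM early and 59.3 ± 14.1 CPM late (SD, n = 4 each) with overlapping ranges, and the difference did not pass (log2 -0.40 ± 0.25 SE, edgeR adjusted p = 0.239). PTPRZ1 stood at 0.750 and 1.45 CPM at E16 (ZZ before DZ), 2.03 and 3.27 CPM at E18, 12.9 and 12.1 CPM at E21 and 6.40 and 4.59 CPM at E28. The groups did not overlap, and the highest values were at E21. The late level of PTPRZ1 was 5.03-fold the early one (log2 2.33 ± 0.53 SE, edgeR adjusted p = 0.0131). From E18 to E21 it rose by 2.30 ± 0.37 on the log2 scale (edgeR adjusted p = 0.00961), a step that did not pass without E18-ZZ (1.97, 0.0965) or E18-DZ (2.61, 0.0529).

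SDC3 moved by the smallest fold of those that passed. Its level was 28.4 ± 5.67 CPM early and 43.2 ± 2.74 CPM late (SD, n = 4 each), without overlap, which is a 1.56-fold difference (log2 0.64 ± 0.16 SE, edgeR adjusted p = 0.0173). The call was lost without E16-DZ (log2 0.59, edgeR adjusted p = 0.0548) or without both E28 libraries (0.72, 0.0561). The step from E18 to E21 (log2 0.50 ± 0.13 SE, edgeR adjusted p = 0.0338) was lost when any 1 of the E18 or E21 libraries was left out, with log2 differences of 0.39 to 0.60. ALKAL2, a ligand of ALK, stood at 11.9 CPM in E28-ZZ and 11.0 CPM in E28-DZ. Its earlier libraries ranged from 0.394 to 1.91 CPM, so the early and late groups overlapped although the late mean was higher. It was 10.7-fold higher late than early (log2 3.43 ± 0.86 SE, edgeR adjusted p = 0.0190), and 8.20-fold higher at E28 than at E21 (log2 3.04 ± 0.46 SE, edgeR adjusted p = 0.0148). The late against early call of ALKAL2 was lost without E16-DZ (3.45, edgeR adjusted p = 0.0601), E28-ZZ (2.60, 0.104) or E28-DZ (2.69, 0.0547), and the E21 to E28 step without E28-DZ (0.0547). With both E16 libraries left out none of the 4 late against early calls passed, with log2 differences of 2.17 (PTN), 1.81 (PTPRZ1), 0.43 (SDC3) and 3.66 (ALKAL2) and edgeR adjusted p between 0.0832 and 0.133.

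The ligand and its receptors were then set against each other over cell types. Counts were summed per gate and library, and each of 14 gates with at least 3 such sums was compared with the mean of the other gates in 1 fit over 11343 genes, with the library as a block. Over 84 tests (6 genes in 14 gates), 22 were higher and 13 lower. Of these, 3 higher and 1 lower were PTPRZ1 and 4 higher were ALKAL2. Both genes had few UMIs in most gates, and their calls between gates are described only. The share of all genes that passed has to be read beside these: it was 57.6% for the neuron gate, 54.0% for erythroid, 41.6% for myocyte, 41.5% for endothelial, 35.2% for neural progenitor, 24.8% for glia, 22.2% for myoblast, 21.0% for fibroblast, 20.3% for epithelial, 18.0% for lateral mesoderm, 14.5% for chondrocyte, 6.91% for tendon, 6.29% for dermomyotome and 3.51% for sclerotome. The lateral mesoderm gate had sums from early libraries only, and the myoblast and tendon gates from late libraries only.

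PTN was higher than in the other gates in most connective tissue and skeletal gates, though for sclerotome and chondrocytes not with the early libraries alone. It was higher in the fibroblast gate (2.96-fold, log2 1.57 ± 0.26 SE, edgeR adjusted p = 1.78e-06), the sclerotome gate (2.70-fold, 1.43 ± 0.36, 0.00973), the lateral mesoderm gate (2.55-fold, 1.35 ± 0.39, 0.00741) and the chondrocyte gate (2.33-fold, 1.22 ± 0.28, 0.000630). In the tendon gate it did not pass (0.85 ± 0.41, edgeR adjusted p = 0.240), nor did it in the endothelial gate. In the early libraries, however, the endothelial mean of PTN (277.7 CPM) was close to that of lateral mesoderm (272.9 CPM), which had early sums only. It was above those of chondrocytes (148.7 CPM) and sclerotome (66.5 CPM, n = 2). PTN was also higher in the neuron gate (log2 0.90 ± 0.30 SE, edgeR adjusted p = 0.00836). It was lower in myocyte (log2 -2.09 ± 0.45), myoblast (-1.45 ± 0.50), glia (-1.19 ± 0.34) and erythroid (-2.36 ± 0.48) gates, with edgeR adjusted p of 8.01e-05, 0.0272, 0.00613 and 1.81e-05. In the fibroblast gate PTN stood at 679.9 and 360.2 CPM at E16 (ZZ before DZ), 347.3 and 271.0 CPM at E18, 422.4 and 728.7 CPM at E21 and 1508 and 1440 CPM at E28. In the myocyte gate no library was above 178.6 CPM, and the 2 groups of values did not overlap. The neuron call rested on E16-DZ, where 58 cells gave 1017 CPM: without that library the log2 difference was 0.51 (edgeR adjusted p = 0.157). The sclerotome and chondrocyte calls were late ones, since with the early libraries alone the log2 differences were -0.38 (edgeR adjusted p = 0.847) and 0.46 (0.549). With the same early libraries the myocyte difference was -1.31 and did not pass (edgeR adjusted p = 0.170), nor did that of glia (-0.75, 0.117). The sclerotome call was also lost without E21-ZZ (1.22, edgeR adjusted p = 0.112) or E21-DZ (1.21, 0.117), and the lateral mesoderm call without E18-ZZ (0.90, 0.214) or E18-DZ (1.29, 0.0530). The glia call was lost without E21-ZZ (-0.89, edgeR adjusted p = 0.0723) or E21-DZ (-0.90, 0.0779). That of myoblast was lost without 5 of the 8 libraries in turn (-1.28 to -1.18, edgeR adjusted p from 0.0689 to 0.164). It was also lost with gates of at least 3 markers (-1.03, 0.104) and without the E28 libraries (-0.90, 0.572).

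MDK was also higher in connective tissue and skeletal gates, by smaller folds in the gates it shared with PTN. It was higher in the tendon (log2 1.07 ± 0.20 SE), sclerotome (0.91 ± 0.18), fibroblast (0.79 ± 0.14), chondrocyte (0.67 ± 0.15) and dermomyotome (0.62 ± 0.15) gates, with edgeR adjusted p between 1.10e-05 and 0.00312. The tendon call was lost without the E28 libraries (0.90, edgeR adjusted p = 0.0733). It was lower in the neuron (-0.999 ± 0.17) and erythroid (-2.42 ± 0.20) gates (edgeR adjusted p = 9.35e-07 and 1.23e-17). The lower value of the neural progenitor gate (-0.53 ± 0.19, edgeR adjusted p = 0.0231) was lost without any 1 of the E18 or E21 libraries and with scaling to total UMIs (-0.33, 0.162). For the neuron gate the difference belonged to the late libraries: with the early ones alone it was -0.18 (edgeR adjusted p = 0.248).

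**Figure D2:**
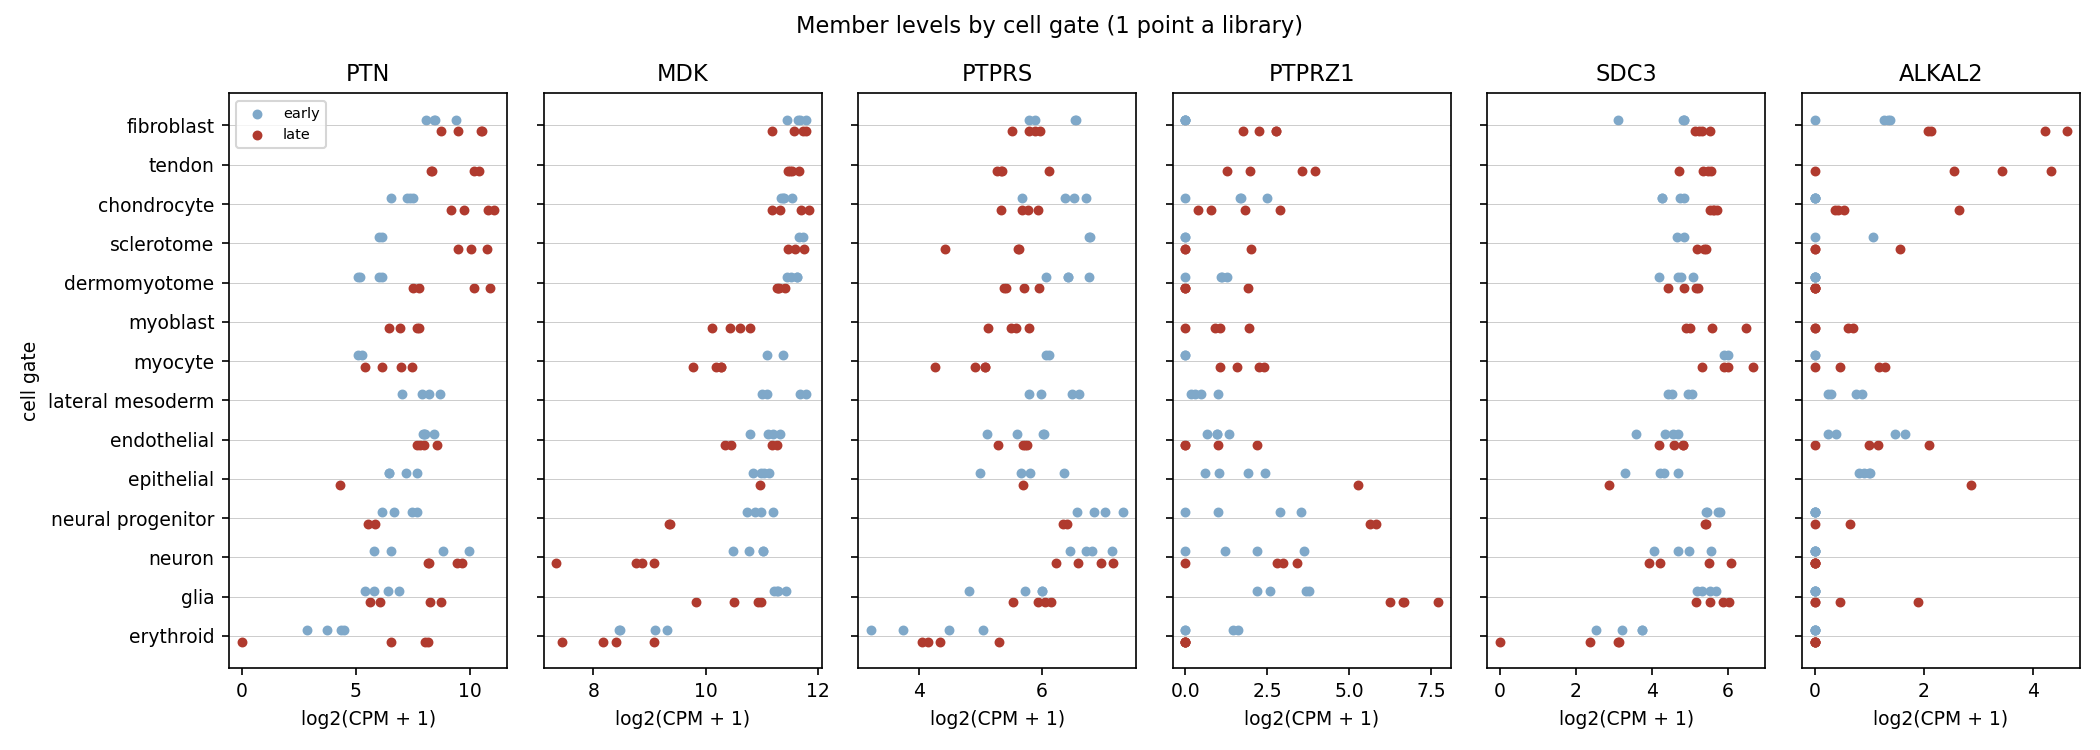
Level of each gene (x axis, log2(CPM + 1), with its own range in each panel) in the sums of each gate (y axis), 1 point per library, with early and late libraries in different colours. PTN is high in the fibroblast gate, where its lowest library has 271.0 CPM, and low in the myocyte gate, where its highest has 178.6 CPM, and PTPRZ1 is highest in the late glia sums (74.5 to 208.8 CPM).

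The receptors had other peaks. PTPRS was higher in the neuron gate (2.21-fold, log2 1.14 ± 0.10 SE, edgeR adjusted p = 6.15e-17) and the neural progenitor gate (1.91-fold, 0.93 ± 0.11, 2.56e-10), and lower in the myocyte (-0.71 ± 0.13, 6.90e-06) and erythroid gates (-1.72 ± 0.19, 2.03e-12). In the 8 neuron sums it ranged from 73.8 to 142.2 CPM with a median of 107.4. The myocyte difference did not pass with the early libraries alone (-0.22, edgeR adjusted p = 0.410). PTPRZ1 had its highest late means in the glia gate (121.0 CPM, n = 4) and the neural progenitor gate (52.1 CPM, n = 2). The fitted differences from the other gates were 22.5-fold for glia (log2 4.49 ± 0.26 SE, edgeR adjusted p = 2.36e-25) and 9.39-fold for neural progenitors (3.23 ± 0.37, 2.87e-11). Like ALKAL2 below, PTPRZ1 passed the low-count filter through the few sums in which it is high, and the other gates held few of its UMIs. These folds are therefore rough, and the calls are described only. With no such filter the glia and neural progenitor differences were 4.48 and 3.23 (edgeR adjusted p = 7.47e-27 and 9.48e-12). Its higher value in the epithelial gate (1.75 ± 0.55, edgeR adjusted p = 0.0133) rested on E21-ZZ, whose 36 cells gave 37.9 CPM against 0.500 to 4.39 CPM in the other 4 libraries, and was 1.44 (0.207) without it. Its lower value in the myoblast gate (-1.97 ± 0.69, 0.0286) was lost under 5 of 12 alternatives and without 7 of the 8 libraries in turn. SDC3 was higher in the myocyte (1.96-fold, log2 0.97 ± 0.16 SE, edgeR adjusted p = 2.65e-07), neural progenitor (0.67 ± 0.17, 0.00106) and glia (0.66 ± 0.14, 0.000174) gates, and lower in the endothelial (-0.56 ± 0.16, 0.00234), epithelial (-0.84 ± 0.21, 0.00127) and erythroid (-1.94 ± 0.31, 1.96e-07) gates. With a mitochondrial limit of 5% the SDC3 calls of glia (0.47, edgeR adjusted p = 0.0974), endothelial (-0.38, 0.273) and epithelial gates (-0.61, 0.138) were lost. That of neural progenitors was 0.42 (edgeR adjusted p = 0.122) without the E16 libraries and 0.07 (1.0) with the late libraries alone. Myocytes were therefore the gate with the lowest fitted PTN after erythroid cells and the highest fitted SDC3. The late means of PTN ranked otherwise: 104.3 ± 61.1 CPM (SD, n = 4) in myocytes, 159.0 ± 136 CPM (n = 4) in erythroid cells and 51.4 ± 7.33 CPM in neural progenitors (n = 2).

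In the late libraries the ALKAL2 mean was highest in the fibroblast gate (12.0 ± 10.4 CPM, SD, n = 4) and the tendon gate (8.48 ± 8.18 CPM, n = 4). The epithelial gate had 6.31 CPM in its 1 late library. The fitted differences from the other gates were log2 3.48 ± 0.35 SE (edgeR adjusted p = 5.67e-12) for fibroblast and 3.18 ± 0.55 (4.40e-05) for tendon. ALKAL2 passed the low-count filter through the sums in which it is high, so its calls between gates are described only. It was not tested with gates of at least 3 markers, with the early libraries alone or without the E28 libraries. Between 81.3% and 94.0% of its gated UMIs were in fibroblast-gated cells in the late libraries, where those cells were 27.1% to 67.7% of gated cells. At E16 the whole libraries held only 30 (ZZ) and 29 (DZ) ALKAL2 UMIs, gated or not. Of the gated ones, 52.4% and 60.0% were in endothelial-gated cells, which were 19.5% and 25.6% of gated cells. Fibroblast-gated cells, at 8.18% and 1.76% of gated cells, held 9.52% and 0%, and epithelial-gated cells ranked second in both libraries. These E16 shares rest on few UMIs. Not a single ALKAL2 UMI was counted in 1168 dermomyotome-gated cells, which allows up to 0.257% of cells with a UMI (3 counts, counting error only) and sets no limit on cells expressing the gene, nor in 3619 neuron-gated cells (up to 0.0829%) or 945 erythroid-gated cells (up to 0.317%). The higher values in the epithelial gate (2.29 ± 0.58, edgeR adjusted p = 0.00229) and endothelial gate (1.86 ± 0.44, 0.000432) rested on 0.192 to 6.31 CPM where detected, and under DESeq2 were 1.80 (adjusted p = 0.0705) and 0.92 (0.177).

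The gates that held the UMIs of the ligand and of the receptors overlapped in part and differed between stages. Of the PTN UMIs in gated cells, endothelial-gated cells held 26.5% to 31.98% and lateral mesoderm-gated cells 20.1% to 43.0% in the early libraries, where they were 16.6% to 25.6% and 15.1% to 32.2% of gated cells. Epithelial-gated cells held 31.9% in E16-DZ, where they were 24.7% of gated cells. In the late libraries fibroblast-gated cells held 35.6% to 77.4% and chondrocyte-gated cells 15.5% to 26.2% of PTN, being 27.1% to 67.7% and 10.4% to 17.5% of gated cells. Neuron-gated cells held 31.5% of PTN in E21-ZZ, where they were 32.5% of gated cells. At E28 fibroblast-gated cells also held most of the gated UMIs of PTPRS (67.2% in ZZ, 50.9% in DZ) and of SDC3 (61.98% and 51.5%). They were 67.7% and 49.96% of gated cells there, so these shares lay near their share of cells. In E16-ZZ lateral mesoderm-gated cells held the most of both PTN (34.0%) and PTPRS (43.1%), being 32.2% of gated cells. Neuron-gated cells held 50.4% of the gated PTPRS UMIs in E21-ZZ and 34.7% in E21-DZ, but 1.63% and 10.2% in E28-ZZ and E28-DZ, where neuron-gated cells were few (61 and 218). Glia-gated cells held 44.8% to 60.2% of the gated PTPRZ1 UMIs in the late libraries while being 1.54% to 7.04% of gated cells.

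Within single gates, late and early libraries were compared where at least 3 sums of each period had 20 or more cells. All 6 genes passed the low-count filter in the fibroblast gate, 5 in glia, 4 in chondrocyte, dermomyotome, endothelial and neuron gates, and only MDK in the erythroid gate. PTPRZ1 and ALKAL2 pass such a filter mainly through the libraries in which they are high. In 28 tests, beside 1.32% to 30.9% of all genes per gate, 6 were higher and 3 lower. Among the higher ones, PTPRZ1 in glia and PTPRZ1 and ALKAL2 in fibroblasts passed the filter mainly or only through the late libraries and are described only.

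PTN rose within the chondrocyte gate from 148.7 ± 40.1 CPM (SD, n = 4) to 1353 ± 747 CPM (n = 4). The values were 168.5 and 184.3 CPM at E16 (ZZ before DZ), 92.4 and 149.4 CPM at E18, 588.4 and 871.3 CPM at E21 and 1772 and 2179 CPM at E28. No library of one period reached into the other, and the lowest late value was 588.4 CPM. The difference was 9.03-fold (log2 3.17 ± 0.39 SE, edgeR adjusted p = 0.000533), in a comparison in which 20.2% of all genes passed. It passed in all 10 alternative fits and with each library left out (log2 2.81 to 3.42). Gates of at least 3 markers did not leave enough sums for a fit and are not among the 10. In the same gate SDC3 was 2.08-fold higher late (log2 1.06 ± 0.18, edgeR adjusted p = 0.00257) and PTPRS 1.70-fold lower (-0.77 ± 0.21, 0.0272). The SDC3 call was lost with a mitochondrial limit of 5% (0.97, edgeR adjusted p = 0.0841), and that of PTPRS without E16-DZ, E18-ZZ, E18-DZ or E28-DZ, each in turn (-0.77 to -0.62, adjusted p up to 0.106). The chondrocyte gate itself changed: the summed level of its own 8 measured markers went from 405.7 to 550.8 CPM early to 1773 to 6557 CPM late, with MATN1 at 0 early. All 6 fibroblast markers were detected there in both periods and summed to 25.3 to 146.3 CPM early and 230.5 to 1327 CPM late. Their part in the PTN result was not tested.

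PTN also rose in the dermomyotome gate, by 19.03-fold (log2 4.25 ± 0.65 SE, edgeR adjusted p = 0.000670), where 8.39% of all genes passed and PTN alone of 4 genes described here. It stood at 64.4 and 71.3 CPM at E16 (ZZ, DZ), at 33.4 and 35.5 CPM at E18 (ZZ, DZ), at 180.8 and 221.2 CPM at E21 (ZZ, DZ), and at 1186 and 1887 CPM at E28 (ZZ, DZ). The E28 values came from 28 and 30 cells. The call was kept in all 9 alternative fits (log2 2.11 to 4.70) and with each library left out (3.22 to 4.65). Gates of at least 3 markers and sums of at least 50 cells did not leave enough sums for a fit. They are not among the 9. In the same gate the 6 fibroblast markers were all detected in both periods and summed to 24.3 to 44.5 CPM early and 334.3 to 887.7 CPM late. The myoblast markers summed to 10.0 to 117.9 CPM (4 of 5 detected, MYOD1 at 0) and 154.9 to 286.3 CPM (5 of 5), and the neuron markers to 12.96 to 24.2 CPM and 533.3 to 671.7 CPM, with NHLH1 at 0 in both. The gate's own 4 markers summed to 494.0 to 642.4 CPM early and 630.0 to 840.0 CPM late. What part these other transcripts had in the PTN result was not tested.

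**Figure D3:**
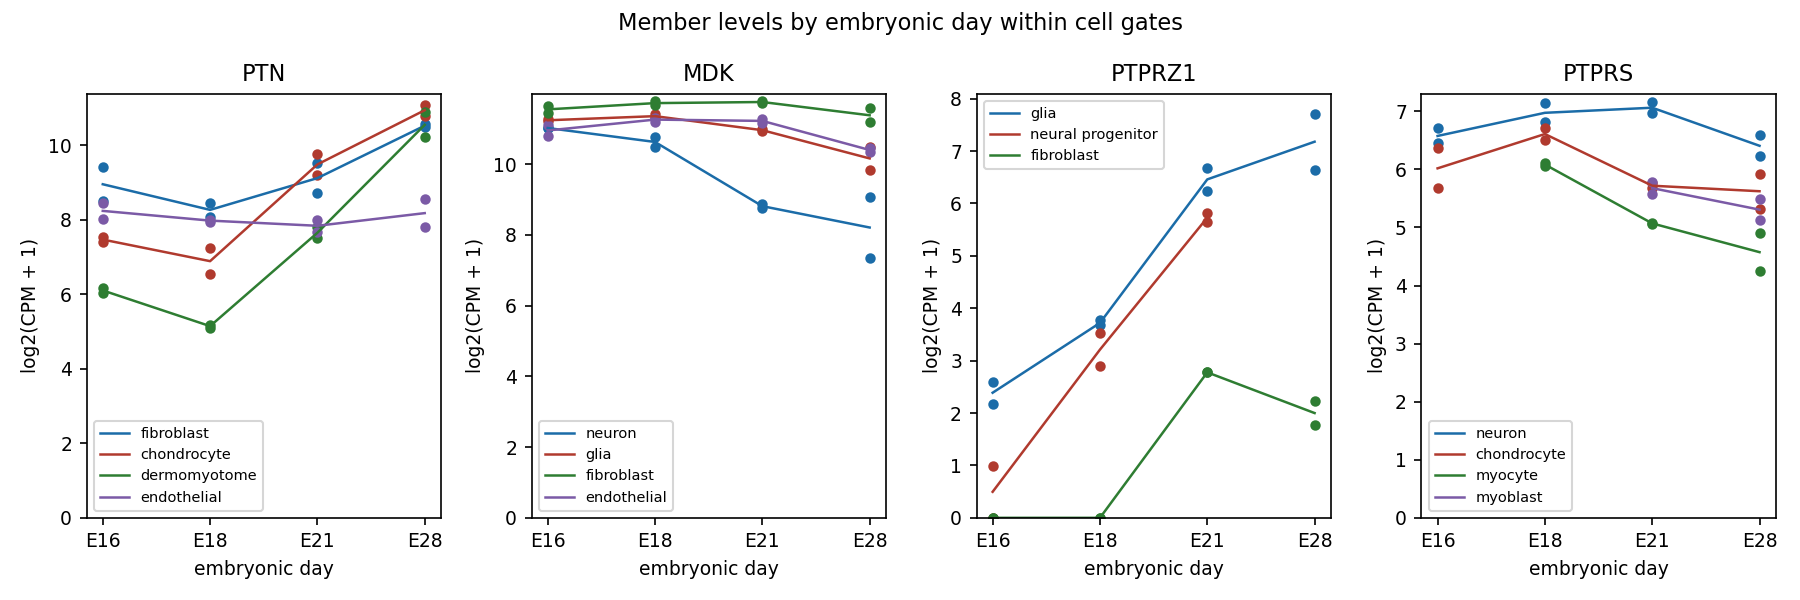
Levels of PTN, MDK, PTPRZ1 and PTPRS (y axis, log2(CPM + 1)) against embryonic day (x axis, days at equal spacing) within chosen gates, 1 point per library and a line through the mean of the libraries of each day. The PTN line rises after E18 in the chondrocyte and dermomyotome gates, whose late against early log2 differences are 3.17 and 4.25, and stays level in the endothelial gate (-0.04).

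PTN passed in none of the other gates where it was tested. Only in the endothelial gate was its late mean not above the early one. In the endothelial gate (24.9% of all genes passed, none of 4 described here), it was 277.7 ± 47.3 CPM early and 264.1 ± 77.2 CPM late (SD, n = 4 each; log2 -0.04 ± 0.20 SE, edgeR adjusted p = 0.917). In the fibroblast gate (19.2% of all genes) it was 414.6 ± 181 CPM early and 1025 ± 534 CPM late with overlapping ranges, and did not pass (log2 1.30 ± 0.42 SE, edgeR adjusted p = 0.0575). In the glia gate (28.8% of all genes) its difference was 1.59 ± 0.58 (edgeR adjusted p = 0.0527), and in the neuron gate (30.9% of all genes) 0.49 ± 0.75 (0.679). These differences were compared with each other in 1 fit over 21 pairs of gates. The late against early difference of PTN was larger in the chondrocyte gate than in the endothelial (by 2.91 on the log2 scale), fibroblast (1.85), glia (1.79) and neuron (2.26) gates, and larger in the dermomyotome gate than in the same 4 (3.60, 2.54, 2.48 and 2.95), all passing edgeR's test of the difference. Those of dermomyotome with fibroblast and neuron passed in all 14 alternative fits, and those with glia and endothelial cells were lost with a mitochondrial limit of 5% (highest adjusted p 0.253 and 0.0772). No dermomyotome or chondrocyte pair could be fitted with gates of at least 3 markers, and no dermomyotome pair with sums of at least 50 cells. Of the chondrocyte pairs, that with glia was lost under 8 of 15 alternatives and that with fibroblast under 3, that with endothelial cells with the 5% limit (0.100) and that with neuron without E16-DZ (0.0733). The share of all genes that passed was 9.73%, 7.71%, 8.64% and 22.3% for the chondrocyte pairs and 3.64%, 2.47%, 4.46% and 14.9% for the dermomyotome pairs. For the pair of endothelial and erythroid gates (2.13% of all genes passed) the PTN difference is not read: erythroid levels rested on 38 early and 86 late UMIs of PTN, with the late E21-ZZ sum at 0, and the call was lost under 6 of 15 alternatives. For the pair of dermomyotome and chondrocyte (1.79% of all genes), none of the genes passed.

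MDK fell in the neuron gate, and less firmly in the glia gate. In the neuron gate MDK stood at 2078 and 2076 CPM at E16 (ZZ before DZ), 1738 and 1436 CPM at E18, 430.1 and 467.6 CPM at E21 and 537.8 and 161.3 CPM at E28. Every early value was above every late one. The late level was 4.84-fold lower (log2 -2.28 ± 0.30 SE, edgeR adjusted p = 0.000258), a call kept in all 10 alternative fits and with each library left out (-2.56 to -2.01). Gates of at least 3 markers did not leave enough sums for a fit here either. The neuron gate's 6 measured markers summed to 985.0 to 2773 CPM early and 8344 to 10970 CPM late. Neural progenitor markers in this gate (3 of 5 detected early and 2 late) went from 97.9 to 176.0 CPM to 0 to 77.7 CPM, and epithelial markers (5 of 6 detected) from 28.8 to 211.5 CPM to 0 to 2.16 CPM. The part of these shifts in the MDK result was not tested. In the glia gate MDK was 2521 ± 157 CPM early and 1583 ± 520 CPM late (SD, n = 4 each, log2 -0.64 ± 0.19 SE, edgeR adjusted p = 0.0240). This call was lost without E16-DZ (-0.63, 0.0572), E18-ZZ (-0.63, 0.0525) or E28-ZZ (-0.59, 0.0708). It was also lost with a mitochondrial limit of 5% (-0.58, 0.107) and without both E28 libraries (-0.34, 0.167). In fibroblast, chondrocyte, dermomyotome, endothelial and erythroid gates the MDK differences were between -0.24 and 0.08 and did not pass. In the erythroid gate 1.32% of all genes passed. The fall in the neuron gate differed from the differences of the chondrocyte, dermomyotome, fibroblast, endothelial, erythroid and glia gates by 1.57 to 2.35 on the log2 scale, and each of these 6 passed edgeR's test of the difference. The same test between chondrocytes and glia (0.78) was lost under 9 of 15 alternatives (adjusted p up to 0.154). For these pairs, in the same order, 22.3%, 14.9%, 23.2%, 22.3%, 9.22% and 20.4% of all 10762 genes passed.

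PTPRZ1 rose within glia. In the glia gate it stood at 3.53 and 5.05 CPM at E16 (ZZ before DZ), 11.7 and 12.6 CPM at E18, 74.5 and 101.6 CPM at E21 and 208.8 and 99.0 CPM at E28. The late libraries were all above the early ones. The fitted difference was 12.2-fold (log2 3.61 ± 0.37 SE, edgeR adjusted p = 1.18e-05). It passed in all 11 alternative fits and with each library left out (3.23 to 4.04). PTPRZ1 passed the low-count filter here mainly through the late libraries (602 UMIs, against 78 in the early ones), so this call is described only. Over the same libraries the 6 glia markers summed to 944.5 to 1121 CPM early and 1523 to 2317 CPM late, and 2 of 5 neural progenitor markers were detected, summing to 1.98 to 10.9 CPM and 16.4 to 231.5 CPM. Those of neurons (5 of 6 detected, NHLH1 at 0) went from 476.5 to 655.4 CPM down to 102.8 to 183.2 CPM. None of these shifts was tested as a part of the result.

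Low levels of PTPRZ1 also appeared in late fibroblasts. No PTPRZ1 UMI was counted in 1027 early fibroblast-gated cells, which allows up to 0.292% of cells with a UMI, whereas 223 UMIs were counted in 12729 late ones. Taken against 3 counts over the early cells, the late level of 4.27 CPM was at least 9.67-fold higher. The gene passed the low-count filter through the late libraries alone, so its call in this gate is no support for a difference. The 6 glia markers summed in this gate to 3.67 to 7.57 CPM early and 12.9 to 31.9 CPM late, with FOXD3 at 0 in both periods. ALKAL2 in the fibroblast gate stood at 1.42 and 0 CPM at E16 (ZZ before DZ), 1.54 and 1.61 CPM at E18, 3.38 and 3.21 CPM at E21 and 17.6 and 23.8 CPM at E28. The early values were all below the late ones, and since ALKAL2 too passed the filter through the late libraries, its call in this gate is given no weight. The lateral mesoderm markers, all 6 detected in both periods, summed to 321.2 to 413.3 CPM in early and 0.629 to 19.01 CPM in late fibroblast-gated cells, and the gate's own markers to 1024 to 2931 and 1659 to 3451 CPM. Neuron markers (5 of 6 detected, NHLH1 at 0) went from 6.94 to 33.0 CPM early to 257.1 to 1220 CPM late, and chondrocyte markers (7 of 8 early, MATN1 at 0, and 8 of 8 late) from 47.3 to 74.1 CPM to 121.6 to 375.3 CPM. Their part in either pattern was not tested.

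Differences between gates were also found for the receptors. For PTPRS the late against early difference was lower in the chondrocyte, dermomyotome and fibroblast gates than in glia (by 0.98, 0.99 and 0.75 on the log2 scale) and than in neurons (by 0.78, 0.79 and 0.56), and lower in chondrocytes than in endothelial cells (by 0.71), each passing edgeR's test of the difference. Of all genes 13.1% passed for the pair of fibroblast and glia. The PTPRS difference of chondrocytes from endothelial cells was lost under 4 of 15 alternatives, that of fibroblasts from neurons under 4 of 15, both of dermomyotome under 2 of 14 and that of fibroblasts from glia under 1 of 16. For PTPRZ1 the fitted differences of glia from endothelial cells (9.63% of all genes passed) and from chondrocytes are not read, since the gene was kept in this fit through the gates where it is high, and endothelial cells gave 27 early and 6 late UMIs of it and chondrocytes 8 and 38. Nor are its pairs of the fibroblast gate with endothelial cells (12.2% of all genes passed), neurons and chondrocytes, since early fibroblasts had no PTPRZ1 UMI. No gene described here passed for the erythroid gate paired with chondrocyte (3.08% of all genes), dermomyotome (1.14%), fibroblast (3.33%) or glia (2.79%). For SDC3 none of the 21 pairs passed.

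Along the myogenic sequence the ligands and PTPRS were lower, and SDC3 higher, at its end. Between myocyte and dermomyotome gates, where 30.6% of all genes passed, PTPRS was 1.93-fold lower in myocytes (log2 -0.94 ± 0.17 SE, edgeR adjusted p = 5.56e-06), MDK 1.83-fold lower (-0.87 ± 0.23, 0.00229), PTN 3.62-fold lower (-1.86 ± 0.51, 0.00308) and SDC3 2.02-fold higher (1.02 ± 0.23, 0.000289). Those of PTPRS and SDC3 passed in all 13 alternative fits. That of PTN did not hold everywhere: it was 0.00899 with the early libraries alone (edgeR adjusted p = 1), -0.97 with sums of at least 50 cells (0.144) and -0.89 without the E28 libraries (0.319). With gates of at least 3 markers the PTN difference was -1.03 and did not pass either (edgeR adjusted p = 0.159). The E28 dermomyotome sums had 28 and 30 cells, and in the late dermomyotome gate the fibroblast and neuron markers reached 887.7 and 671.7 CPM beside 630.0 to 840.0 CPM of its own, whose part was not tested. The MDK difference was -0.36 (edgeR adjusted p = 0.159) with the early libraries alone. The intermediate steps were smaller. From dermomyotome to myoblast (7.63% of all genes) and from myoblast to myocyte (20.1% of all genes) none of the 6 genes passed, and the nearest was PTPRS between myoblast and myocyte (-0.48 ± 0.19, edgeR adjusted p = 0.0647). PTPRS in the myocyte gate stood at 65.8 and 68.0 CPM at E18, 32.5 and 32.7 at E21 and 28.9 and 18.0 CPM at E28 (ZZ, DZ each). In the dermomyotome gate of the same libraries it was 84.7 and 107.9, 50.9 and 60.8, and 40.7 and 41.8 CPM, above the myocyte value in all 6. SDC3 in the myocyte gate was 63.0 and 58.2, 99.7 and 62.9, and 58.6 and 39.2 CPM, above the dermomyotome value of the same library in all 6 (20.3 to 36.0 CPM).

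Set against myoblasts, fibroblasts had more of both PTN and MDK. Between these gates 25.8% of all genes passed, and PTN was 6.98-fold higher in fibroblasts (log2 2.80 ± 0.59 SE, edgeR adjusted p = 0.000146) and MDK 1.79-fold (0.84 ± 0.27, 0.0139). ALKAL2 had 12.0 ± 10.4 CPM (SD, n = 4) in late fibroblasts and 0.287 ± 0.334 CPM (n = 4) in late myoblasts, which held 5 UMIs of it, so its call is not used here. PTPRS, PTPRZ1 and SDC3 did not pass (0.34 ± 0.18, 1.46 ± 0.68 and -0.27 ± 0.23, edgeR adjusted p = 0.147, 0.103 and 0.416). The MDK difference was lost without E28-ZZ (0.77, edgeR adjusted p = 0.0766) or without both E28 libraries (0.69, 0.258). PTN did not pass between connective tissue gates: fibroblast against chondrocyte (6.48% of all genes passed) gave 0.33 ± 0.40, chondrocyte against sclerotome (0.203%) -0.20 ± 0.47, and tendon against fibroblast (0.0882%) -0.66 ± 0.52. Of all 6 genes only ALKAL2 passed in these 3 comparisons, between fibroblasts and chondrocytes, a call that is not used either, since chondrocytes held 0 early and 24 late UMIs of it and E28-ZZ stood apart among them at 5.29 CPM. Neural gates were compared as well. Fitted PTPRZ1 was 4.84-fold lower in neurons than in neural progenitors (log2 -2.28 ± 0.51 SE, edgeR adjusted p = 0.000181). That call is described only, since the gene was kept in this fit through the sums where it is high, and neurons held 10 early UMIs of it. In the same comparison 37.2% of all genes passed, and PTN was 2.35-fold higher in neurons (1.23 ± 0.47, edgeR adjusted p = 0.0322). Glia had 1.83-fold less PTPRS than neural progenitors (-0.87 ± 0.15, edgeR adjusted p = 5.12e-06; 24.1% of all genes passed). The PTN difference was lost without E16-DZ (0.90, edgeR adjusted p = 0.144), E21-ZZ (1.04, 0.122) or E21-DZ (1.12, 0.0956). That of PTPRZ1 was -0.66 (edgeR adjusted p = 0.596) with the early libraries alone and -1.53 under DESeq2 (adjusted p = 0.0844), and that of PTPRS was -0.33 (0.255) with the late libraries alone. The higher PTPRZ1 of glia over neural progenitors (1.17 ± 0.42, edgeR adjusted p = 0.0327) was lost under 7 of 12 alternatives.

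PTN-positive cells were frequent in the gates with high PTN sums. After thinning to 1500 UMIs per cell, the median share of PTN-positive cells over libraries was 57.0% in the sclerotome gate (6.84% to 88.6% over 5 libraries), 48.6% in fibroblast, 48.6% in tendon, 36.1% in chondrocyte and 32.3% in lateral mesoderm gates. These medians are over different libraries, since some gates had sums in 1 period alone. In the 4 late libraries the median was 71.8% in chondrocyte (49.5% to 91.8%), 59.2% in fibroblast and 48.6% in tendon gates, and in the myogenic gates 43.5% in dermomyotome (20.8% to 75.9%), 18.7% in myoblast (12.7% to 24.5%) and 10.6% in myocyte gates (5.10% to 13.7%), with dermomyotome above myoblast and myoblast above myocyte in each library. Erythroid-gated cells, which should lack these genes and stand for free RNA, had a median of 1.62% and a highest library of 8.33% (E28-ZZ), and the myocyte median lay near that highest library. Unthinned, the shares were 73.5% in fibroblast (median depth over the gate 3819.5 UMIs), 20.1% in myocyte (5260 UMIs) and 4.57% in erythroid gates (6849 UMIs). Per cell, the myocyte gate held more PTN UMIs than the erythroid gate of the same library in 5 of 6 libraries, and fewer in E28-ZZ (0.689 against 0.755). The thinned PTN share of the myocyte gate was above the erythroid share of the same library in all 6, at 3.61%, 7.25%, 5.10%, 9.70%, 11.6% and 13.7% against 1.69%, 1.34%, 0%, 0%, 8.33% and 3.92% (E18, E21 and E28, ZZ before DZ).

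PTPRS-positive cells were most frequent in the neuron gate (median 18.9%, range 10.0% to 23.8% over libraries), followed over all libraries by the neural progenitor gate (13.4%, 7.46% to 20.9%), whose late values of 7.46% and 12.3% lay among those of other gates. In the late libraries the medians of the myogenic gates were 7.03% in dermomyotome (3.45% to 9.57%), 7.77% in myoblast (5.56% to 10.1%) and 4.27% in myocyte (2.98% to 6.97%), with overlapping ranges. Over all libraries the myocyte median was 5.71%, against 1.18% in erythroid cells. The myocyte share exceeded the highest erythroid library (4.17%) at the median. PTPRZ1 was found in a median of 7.40% of glia-gated cells, with 25.4% in E28-ZZ, and in no thinned erythroid-gated cell. In late libraries it was found in 11.7% to 25.4% of glia-gated, 9.71% and 10.5% of neural progenitor-gated (E21 alone) and 0.320% to 4.35% of tendon-gated cells. SDC3 was found in a late median of 10.9% of sclerotome-gated (5.61% to 14.3%), 8.59% of tendon-gated (6.39% to 10.9%), 8.36% of myocyte-gated (6.40% to 15.6%) and 8.06% of glia-gated cells (7.78% to 10.4%), ranges that overlap, against a median of 0% and a highest library of 1.32% in erythroid cells.

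**Figure D4:**
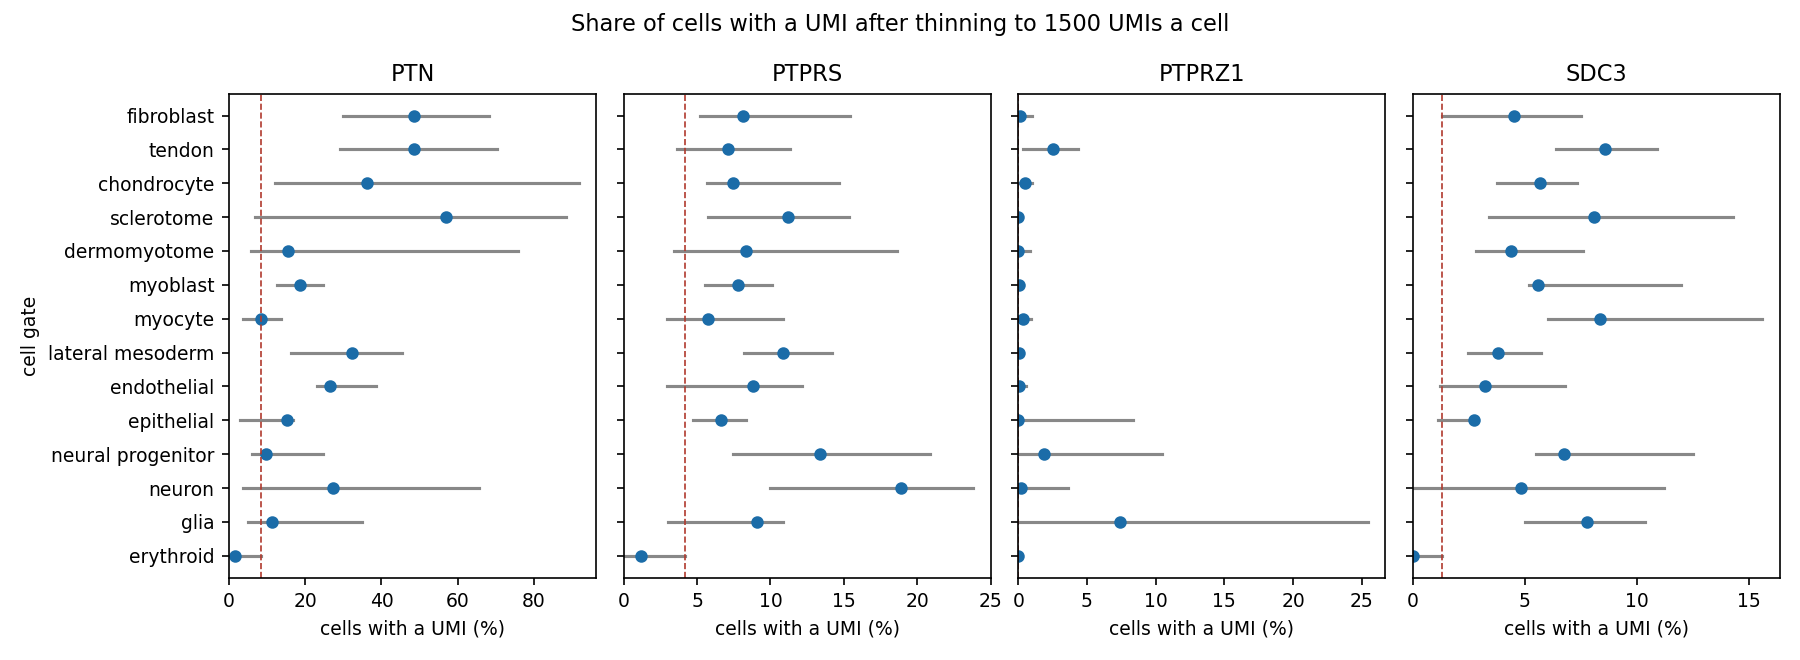
Share of cells with a UMI of PTN, PTPRS, PTPRZ1 and SDC3 after thinning to 1500 UMIs per cell (x axis, percent, with its own range in each panel) by gate (y axis), with a point at the median over libraries and a bar from the lowest to the highest library. The dashed line is the highest library of the erythroid gate: 8.33% for PTN, 4.17% for PTPRS and 1.32% for SDC3.

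Between early and late libraries, shares without overlap of the periods included PTN in the chondrocyte gate (17.7% ± 5.52 to 71.3% ± 20.7, SD, n = 4 each), PTN in the dermomyotome gate (7.65% ± 2.09 to 45.9% ± 28.3), MDK in the neuron gate (88.8% ± 7.57 to 37.8% ± 12.1) and PTPRZ1 in the glia gate (1.59% ± 1.28 to 16.1% ± 6.40). These are shares whose sums are described above. With 4 against 4 libraries the exact two-sided permutation test cannot go below p = 0.0286, which these 4 and other shares reached. Over 42 shares tested the lowest adjusted p was 0.133, so none passed. With this limit none could pass unless most of the 42 reached it, so the test could hardly decide. In the late libraries cells with both PTN and at least 1 of PTPRS, PTPRZ1 and SDC3 made up a median of 15.6% in the sclerotome gate (10.3% to 17.1%, 3 libraries), 9.90% in neuron (3.56% to 15.96%), 9.70% in chondrocyte (7.32% to 12.4%), 9.34% in tendon (4.35% to 15.6%) and 7.97% in fibroblast gates (6.01% to 10.7%), with ranges that overlap. In the myogenic gates such cells were 5.19% (dermomyotome), 2.21% (myoblast) and 1.57% (myocyte), while cells with any of these 3 receptors were 11.9%, 14.9% and 13.6%. In the glia gate 25.97% to 35.96% of late cells had a receptor, and a median of 2.79% had PTN as well. Shares of cells with both depend on the separate shares of PTN and receptor cells. Whether the 2 met in a cell more often than these separate shares give was not tested.

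Breed was compared with the stage as a block, 1 library of each breed per stage. In whole libraries no gene of 14339 passed (0%), although 890 had an unadjusted p under 0.05, and the breed by period test gave no call either (122 genes with an unadjusted p under 0.05). None of the 6 genes passed in whole libraries or in any of 9 gates. Of all genes 0.173% passed in the myocyte gate, 0.112% in erythroid, 0.0607% in dermomyotome, 0.0244% in neural progenitor, 0.0107% in chondrocyte and 0.00982% in endothelial gates, and 0% in fibroblast, glia and neuron gates. DESeq2 also called none of the 6 in whole libraries. In whole libraries the PTN difference of DZ from ZZ was 0.06 ± 0.17 SE on the log2 scale (edgeR adjusted p = 0.972). The lowest adjusted p of the 6 genes over gates was that of PTN in glia, where it was higher in DZ by 0.46 ± 0.12 on the log2 scale and did not pass (edgeR adjusted p = 0.305). MDK in the myocyte gate, at -0.23 (edgeR adjusted p = 0.933), was -0.42 and passed when E21-ZZ (0.00870) or E21-DZ (0.00877) was left out.

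Other genes of the pathway were taken from lists put together for this family. In whole libraries 8 of 9 other syndecans and glypicans were tested, of which GPC2 was higher late (log2 1.09 ± 0.36 SE, edgeR adjusted p = 0.0499) and none lower. Of 5 receptor phosphatases related to PTPRS, PTPRD was higher (1.71 ± 0.40, edgeR adjusted p = 0.0151) and PTPRF lower (-0.42 ± 0.13, 0.0436). Of 10 further receptors reported for pleiotrophin or midkine, ITGA4 was higher (1.32 ± 0.36, edgeR adjusted p = 0.0245) and nucleolin (NCL) lower (-0.77 ± 0.10, 0.00241). Of 17 tested enzymes that build or modify heparan and chondroitin chains, among them the sulfatases SULF1 and SULF2, XYLT1, which starts the chains, was higher (1.22 ± 0.23, edgeR adjusted p = 0.00775) and CHPF, a chondroitin polymerizing factor, lower (-0.69 ± 0.19, 0.0280). Of 7 other PTPRZ1 partners and chondroitin sulfate proteoglycans 3 were higher and none lower: the contactin CNTN1 (24.1-fold, log2 4.59 ± 0.39), CSPG4 (15.2-fold, 3.92 ± 0.65) and neurocan NCAN (2.67-fold, 1.41 ± 0.31), with edgeR adjusted p of 0.00153, 0.00492 and 0.0124. Of 10 PTPRZ1 substrates and ALK signalling genes 3 were higher and none lower: PIK3R1 (1.13 ± 0.17), FRS2 (0.74 ± 0.19) and GRB2 (0.35 ± 0.11), with edgeR adjusted p of 0.00340, 0.0195 and 0.0399. The list medians were 0.36, 0.37, -0.02, 0.44, 0.70 and 0.20 in this order, beside 0.03 over all genes, and 13 of the 57 genes tested passed beside 34.2% of all genes. The ALK family genes LTK and ALKAL1 were not tested.

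Between gates, the fibroblast gate had 5 of 7 tested syndecans and glypicans higher and none lower (list median log2 0.79, 0.02 over all genes, of which 21.0% passed), including SDC2 (1.45 ± 0.18 SE, edgeR adjusted p = 2.17e-10). The chondrocyte gate had 8 of 15 chain-building and modifying enzymes higher and none lower (list median 0.53, 0.02 over all genes, of which 14.5% passed). Neurons, where 57.6% of all genes passed, had 5 of 7 syndecans and glypicans lower (list median -1.30, 0.02 over all genes) and 1 higher, GPC2 (2.29 ± 0.14, edgeR adjusted p = 3.21e-25). Neurons also led for the PTPRZ1 partners NFASC (4.24 ± 0.22), NCAN (3.75 ± 0.22) and CNTN1 (3.57 ± 0.24) and for LRP8, a lipoprotein receptor family member (2.26 ± 0.16), with edgeR adjusted p of 9.10e-29, 4.26e-26, 2.97e-22 and 9.42e-21. Among glia, where 24.8% of all genes passed and 5 of 10 further receptors were higher and none lower, ITGA4 (2.91 ± 0.26) and the sulfotransferase CHST3 (2.14 ± 0.17) were higher, with edgeR adjusted p of 1.36e-15 and 1.46e-18. Endothelial cells had the phosphatase PTPRM (4.05 ± 0.16), its relative PTPRG (1.17 ± 0.14), the sulfotransferase CHST15 (4.42 ± 0.26), the adaptor SHC1 (2.58 ± 0.11) and the kinase FYN (1.47 ± 0.10) higher, with edgeR adjusted p from 3.23e-36 to 1.65e-11. PTPRF was higher in the epithelial gate (2.26 ± 0.17, edgeR adjusted p = 3.44e-19) and DSE, an epimerase of dermatan sulfate, in the fibroblast gate (1.82 ± 0.14, 2.98e-18). ITGB1 (-1.57 ± 0.10), GPC1 (-2.34 ± 0.26) and CTNNB1 (-1.86 ± 0.15) were lower in the erythroid gate, with edgeR adjusted p of 4.66e-23, 7.57e-13 and 3.22e-18.

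The genes whose levels ran most like each of the 6 over the 94 sums per gate and library are given as a description, by Pearson's r of log2(CPM + 1) among 7940 genes. The sums share libraries and cell mixtures and are not independent. PTN ran most like MPPED2 (0.734) and DYNLT3 (0.722), and MDK like FLNA (0.866), FBLN1 (0.864) and YAP1 (0.861). The phosphatase PTPRS ran most like SREBF2 (0.790), STRBP (0.785) and CNTFR (0.758). Genes that ran like PTPRZ1 included NPR3 (0.626) and GATD1 (0.616). For SDC3 the nearest were CEP170 (0.751), RBPJ (0.749) and LDLRAD3 (0.746), and for ALKAL2 ENSSSCG00000000261 (0.592), SRI (0.564) and OGN (0.558), the last a marker of the fibroblast gate. Among the 6 genes themselves the values for pairs lay between -0.0890 and 0.424, and that of PTN with PTPRS was 0.157.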

How the data were processed

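The authors deposited filtered single-cell matrices of UMI counts per gene and cell for 8 libraries, made with Cell Ranger 3.1.0 (the E16 libraries) and 3.0.2 (the other 6) per the file headers. Nothing had been normalized. The members and gene lists were chosen with earlier results of these data known. Cells with at least 200 genes, at most 30000 UMIs and at most 10% mitochondrial UMIs were kept (82394 of 90688), and the highest Scrublet scores (scanpy 1.11.5), 0.8% per 1000 deposited barcodes, were removed as likely doublets (8247, where the automatic threshold marks 305). Of 99 gate markers, 91 had a row. Counts were summed over all cells, or over the cells of a gate (at least 20), per library. Sums were tested with edgeR 4.0.16 in R 4.3.3 (quasi-likelihood F test, TMM, filterByExpr, Benjamini-Hochberg over all genes tested, adjusted p under 0.05), in designs with breed, library or stage as covariate. CPM values were TMM-scaled. Shares of cells were taken in Python 3.11.15 after thinning to 1500 UMIs. A gene at 0 was given a floor of 3 counts, which covers counting error only.

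All 6 measured members are named in every comparison, with up to 3 pathway genes of lowest adjusted p per list and the 3 genes of highest likeness per member. Some genes that this rule or the gate checks name are not reported here. Alternatives were relative log expression or total UMI scaling (the latter chosen after seeing the data), no filter, DESeq2 1.42.0, other cell filters, other gates and leaving out libraries. Counts were also simulated with the same spread for every gene, so the rates do not carry over to genes that vary more. The whole-library late against early fit recovered 24% of 2-fold and 99% of 4-fold changes (14525 and 14558 genes). The chondrocyte fit recovered 15% and 94.5% (9360 and 9389 genes), and the fit of myocytes against the other gates 63% and 85.5%. Between 1.49% and 6.25% of the calls were false.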

Additional observations from a re-analysis of the deposited data

Results flagged for a closer look

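Among 112 groups of 4 libraries (a gene, a gate and a period), 8 had 1 library whose gap to the nearest other, divided by the range, exceeded Dixon's critical value, a rule that chance meets in about 1 of 20 groups. They were PTN in the early endothelial gate in E16-ZZ (0.861, with 348.1 CPM against 246.3 to 260.4), PTPRS in the late tendon gate in E28-ZZ (0.930, 67.8 against 37.5 to 39.6 CPM) and PTPRS in the late endothelial gate in E28-DZ (0.846, 38.1 against 50.5 to 52.7 CPM). SDC3 in the early fibroblast gate was low in E16-DZ (0.986, 7.56 against 27.4 to 27.7 CPM), where that gate held 85 cells. PTPRZ1 in the late dermomyotome gate (1.00, 2.77 CPM in E21-DZ and 0 elsewhere) and ALKAL2 in the early fibroblast gate (0.881, 0 in E16-DZ), the late chondrocyte gate (0.966, 5.29 CPM in E28-ZZ) and the late glia gate (0.859, 2.73 CPM in E28-ZZ) rested on few UMIs.

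Of 105 tests of whether a late against early difference was unlike between 2 gates, 28 passed in edgeR, beside 1.14% to 23.2% of all genes per pair: 9 for PTN, 7 for MDK, 7 for PTPRS and 5 for PTPRZ1. For PTN the differences on the log2 scale were chondrocyte over endothelial 2.91, fibroblast 1.85, glia 1.79 and neuron 2.26, dermomyotome over the same gates 3.60, 2.54, 2.48 and 2.95, and endothelial against erythroid -3.17. For MDK they were chondrocyte over glia 0.783 (lost under 9 of 15 alternatives) and neuron 2.35, dermomyotome over neuron 2.09, fibroblast over neuron 2.19, and neuron against endothelial -2.10, erythroid -1.79 and glia -1.57. For PTPRS they were chondrocyte against endothelial -0.714, glia -0.976 and neuron -0.778, dermomyotome against glia -0.987 and neuron -0.790, and fibroblast against glia -0.752 and neuron -0.555. For PTPRZ1 they were chondrocyte against fibroblast -6.53 and glia -3.59, fibroblast over endothelial 6.10 and neuron 5.50, and glia over endothelial 3.15. These 5 are given no weight: early fibroblast-gated cells held no PTPRZ1 UMI, the chondrocyte and endothelial sums held few, and the gene was kept in the fit through the gates where it is high.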

How the results depend on the processing

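Of 65 member results that passed (the differences between gates over the periods are counted apart, below), 25 passed under every alternative in which they were tested and with every library left out. ALKAL2 in tendon is not among the 25, and DESeq2 gave it no adjusted p. Calls of PTPRZ1 and ALKAL2 that are described only are part of both counts. Another 2 results changed sign: with the early libraries alone PTN in the sclerotome gate against the others was -0.38 (edgeR adjusted p = 0.847), and PTN between myocyte and dermomyotome gates was 0.00899 (adjusted p = 1). Counts of member results that passed moved as follows, and the cause was not tested. The share of all genes that passed under each alternative is not set beside these counts, so they cannot be read as changes particular to the members. Late against early in whole libraries gave 4 of 6 tests, 0 without the E16 libraries, 1 without the E28 libraries and 2 to 4 with 1 library left out. Adjacent stages gave 5, 9 under DESeq2 and 2 to 6 with 1 library left out. Within gates 9 passed, 3 with gates of at least 3 markers (16 tests in place of 28) and 6 to 10 with 1 library left out. Between gates 47 passed, 36 to 51 under alternatives and 44 to 47 with 1 library left out. For the difference between gates 28 of 105 passed, 14 with a mitochondrial limit of 5%, 5 with gates of at least 3 markers, 14 with at least 50 cells per sum, and 19 to 28 with 1 library left out. Of the same 28 results, 13 still passed with the 5% limit, 13 of 19 fitted with at least 50 cells per sum and 2 of 4 fitted with at least 3 markers. DZ against ZZ gave 0, with no replicate block 0, and 0 to 1 with 1 library left out. Breed by period gave 0 throughout. Pathway genes gave 13, 21 under DESeq2, 3 without the E16 libraries and 8 to 17 with 1 library left out. For 74 pairs of gene and gate the median share of cells was above the highest erythroid library, 55 to 73 under alternatives and 69 to 73 with 1 library left out. Each stage and breed has 1 library, so the stage is the only pairing. Depth limits what can be seen of ALKAL2, which was at 0 in all dermomyotome, neuron and erythroid sums.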
